A study of Mus musculus with 8 samples.

Results

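Amino acid transporters carry amino acids across the membrane of the muscle fibre, and 8 of their genes are described here in the gastrocnemius of control and GR_KO mice. The genes were Slc43a1, Slc7a5, Slc3a2, Slc38a2, Slc7a2, Slc1a5, Slc7a8 and Slc38a4. Their members on the array were all probe sets whose single gene symbol in the platform annotation was one of these names, which gave 15 of the 45037 probe sets that were not controls. All 8 genes were among the 18193 genes with a single-gene probe set, and 14 of the 15 probe sets passed the filter on dim signals described below.

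The study measured total RNA of gastrocnemius, the large calf muscle, on 1 Affymetrix array per sample. The controls were 4 samples labelled wild type, and the GR_KO group was 4 samples labelled as knockouts of the glucocorticoid receptor, the hormone-activated transcription factor encoded by Nr3c1. Both groups were of the C57/Bl6J background, and the design text names the knockout line GR(i)skm-/-. The labels give no age, sex, treatment or feeding state, and the promoter that drove the deletion is not given in the sources used here. RNA came from whole muscle, so it includes vessels, connective tissue and blood cells, and fewer cells of a type cannot be told apart from less RNA per cell.

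Muscle is the largest store of amino acids in the body, and glucocorticoids are known for shifting it from protein synthesis towards the release of amino acids. The transporters fall into a few classes. System L carriers move large neutral amino acids such as leucine: Slc7a5 (LAT1) and Slc7a8 (LAT2) are exchangers that work only when joined to the heavy chain Slc3a2 (CD98), whereas Slc43a1 (LAT3) is a uniporter that needs no heavy chain. Slc1a5 (ASCT2) and the sodium-coupled carriers Slc38a2 (SNAT2) and Slc38a4 (SNAT4) take up small neutral amino acids, glutamine and alanine among them, and Slc7a2 (CAT2) carries the cationic amino acids arginine, lysine and ornithine.

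The values were MAS5 signals, a brightness per probe set on a linear scale with no unit, scaled by the authors to the same mean on every array. Median signals of the 8 arrays lay between 18 and 26. The targeted gene was lower at probe set 1460303_at of Nr3c1, with control signals of 377, 307, 307 and 352 and GR_KO signals of 134, 79, 76 and 94 (limma over all probe sets tested, adjusted p = 0.0240). Of the 5 Nr3c1 probe sets above the filter, 2 passed with groups that did not overlap, and the other 3 had overlapping groups, with log2 fold changes of -0.38, -1.07 and -0.32. All 15 markers of skeletal muscle fibres were detected above the filter with no signal at 0, so the tissue label was matched. Control replicate 4 stood apart: the mean signal of its 18 hybridisation spike-in probe sets was 6424, against 1852 to 2251 among the other controls and 1820 to 3018 among GR_KO arrays. Several values of the transporters that rest on this array are also given without it.

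No amino acid transporter passed the threshold. The test was limma on log2 signals with the brightest probe set of each gene, with p-values adjusted over the 11062 genes above a signal of 19.4, the median of all probe sets. Of the 8 transporter genes, 0 had an adjusted p under 0.05, where 0.0542% of all genes tested did, and 2 had an unadjusted p under 0.05, where 4.63% of all genes did. The 2 genes were Slc43a1 and Slc38a4, both with lower mean signals in GR_KO muscle. Among the 14 probe sets above the filter, again 0 passed when adjusted over all 22518 probe sets (0.0222% of them did), and 4 had an unadjusted p under 0.05 (3.75% of all). These 4 were the Slc43a1 probe set, both Slc38a4 probe sets and 1 of Slc7a2. The log2 fold changes of GR_KO over control were below 0 for 5 of the 8 genes, with a median of -0.14 (-0.08 without GR_KO replicate 2), while 47.8% of all genes tested were below 0 and their median was 0.01.

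**Figure D1:**
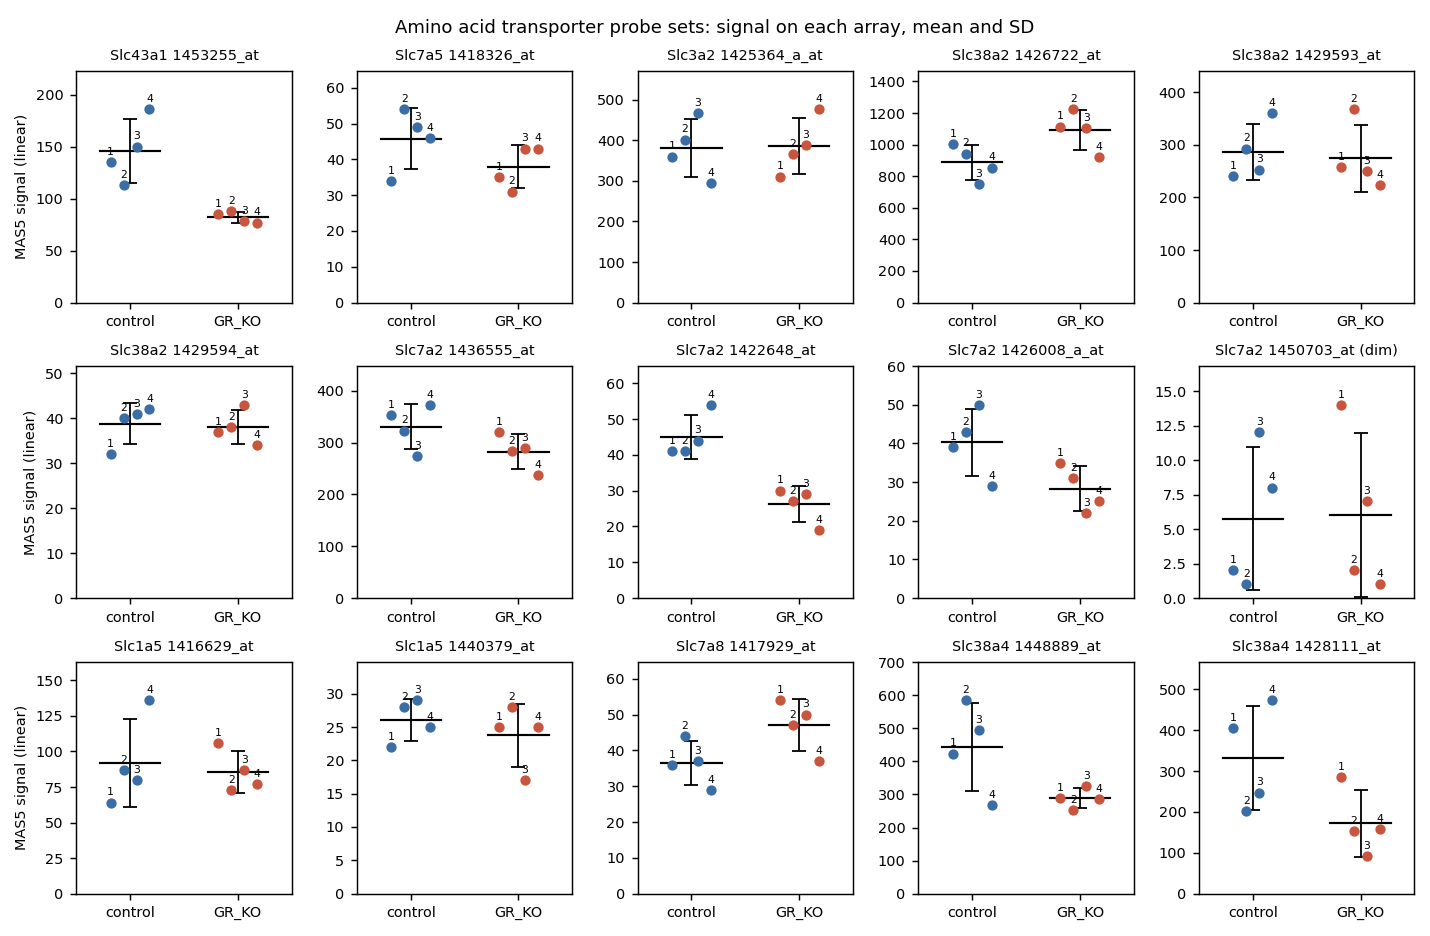
MAS5 signal (vertical axis, linear, from 0) of the 15 transporter probe sets on the 4 control (blue) and 4 GR_KO (red) arrays, each point numbered by replicate, with the mean (horizontal line) and SD (error bar). Only Slc43a1 1453255_at and Slc7a2 1422648_at show GR_KO points that all lie below all control points.

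Slc43a1 encodes the system L uniporter LAT3, which carries leucine and other large neutral amino acids down their gradient. Its only probe set, 1453255_at, gave control signals of 135, 113, 150 and 186 (replicates 1 to 4 in order, here and below) and GR_KO signals of 85, 88, 78 and 77. The groups did not overlap, and the highest GR_KO signal, 88, lay well under the lowest control signal, 113. The GR_KO arrays were close together, with a mean of 82 ± 5.35 (SD, n = 4), and the controls were spread more widely around 146 ± 30.7 (SD, n = 4).

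The difference at Slc43a1 was 1.75-fold, a log2 fold change of -0.81 ± 0.17 (SE) with a 95% interval from -1.19 to -0.43. Its unadjusted limma p of 0.000667 was the 17th smallest of the 11062 genes, and its adjusted p was 0.434. An exact permutation test over the 70 arrangements of 4 against 4 arrays gave the smallest two-sided p it can give, 0.0286. Slc43a1 was the 1 of the 8 transporter genes whose groups did not overlap, where 2.58% of all genes tested had groups that did not overlap. Control replicate 4 had the highest signal of the gene, and without that array the log2 fold change was -0.69 and the groups still did not overlap.

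The receptor acts on many genes by binding DNA elements near or far from a gene's start, and the sequence just upstream of Slc43a1 is shown because its probe set gave the smallest p of the transporters. The sequence is the 250 bases before the start in RefSeq (build GRCm38.p6, strand +, chr2:84840073-84840322), read from 5′ to 3′. It is followed by the stretch before 1 of the 3 annotated starts of Slc38a4 (strand -, chr15:97020360-97020609), the only transporter stretch that held a match. Capitals mark a match to the receptor half-site AGAACA on either strand.
Slc43a1: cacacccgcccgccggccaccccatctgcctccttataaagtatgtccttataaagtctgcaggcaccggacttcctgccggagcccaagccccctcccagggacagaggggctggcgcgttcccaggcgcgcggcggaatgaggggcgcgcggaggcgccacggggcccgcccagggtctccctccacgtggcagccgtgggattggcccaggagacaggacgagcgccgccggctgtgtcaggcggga
Slc38a4: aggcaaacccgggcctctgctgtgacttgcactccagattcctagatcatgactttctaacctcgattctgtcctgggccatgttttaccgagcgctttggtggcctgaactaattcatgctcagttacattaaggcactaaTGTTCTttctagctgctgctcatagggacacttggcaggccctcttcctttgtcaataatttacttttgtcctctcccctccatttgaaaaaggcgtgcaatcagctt

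Both strands of these stretches were searched for 3 motifs. They were the half-site AGAACA, the full palindromic element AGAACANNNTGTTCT, which contains the half-site, and TGATGNAA, the core of the element bound by ATF4, a factor induced when amino acids run short. RefSeq stretches were matched for Slc43a1, Slc3a2, Slc38a2, Slc7a8 and Slc38a4, 7 stretches in all with the 3 starts of Slc38a4. The Slc43a1 stretch held none of the 3 motifs. The half-site occurred once among the 7, at position -108 before that Slc38a4 start, and in 16.1% of all 32851 stretches of the same length. The ATF4 core was in 0 of the 7 and in 3.45% of all stretches, and the full element was in 0 of the 7 and in 3 of all 32851. A match describes letters only, and the absence of one says only that these letters are not in this window.

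Slc38a4, a sodium-coupled carrier of neutral amino acids that is imprinted in the mouse, had lower mean signals in GR_KO muscle at both of its probe sets. At the brighter one, 1448889_at, the control signals were 424, 585, 495 and 269 and the GR_KO signals 289, 252, 326 and 286. The groups overlapped through control replicate 4 alone, whose 269 lay among the GR_KO signals. The means were 443 ± 134 and 288 ± 30.2 (SD, n = 4 each), a 1.49-fold difference with a log2 fold change of -0.57 ± 0.22 (SE, limma unadjusted p = 0.0232, adjusted p = 0.880). Without control replicate 4 the log2 fold change was -0.79, the groups did not overlap and the adjusted p was 0.193.

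The other Slc38a4 probe set, 1428111_at, ordered the control arrays differently. Its signals were 405, 202, 247 and 473 in control replicates 1 to 4 and 286, 153, 92 and 158 in GR_KO replicates 1 to 4. Control replicate 4, the lowest control at 1448889_at, was here the highest array of all, and GR_KO replicate 1 lay above the controls 2 and 3. The log2 fold change was -0.98 ± 0.35 (SE, limma over probe sets, unadjusted p = 0.0176, adjusted p = 0.963). It was -0.78 without control replicate 4 and ranged from -1.26 without GR_KO replicate 1, where the groups did not overlap, to -0.71 without GR_KO replicate 3. The group differences at the 2 probe sets differed by 0.41 on the log2 scale, which was within the spread between arrays (exact permutation p = 0.571, adjusted p = 0.686 over the 6 pairs of probe sets of 1 gene compared).

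Slc7a2, the cationic amino acid transporter that supplies arginine, was measured by 4 probe sets, and the 3 above the filter all had a lower mean in GR_KO muscle. The brightest, 1436555_at, had control signals of 353, 323, 274 and 373 and GR_KO signals of 320, 284, 289 and 237. The groups overlapped, and the log2 fold change was -0.23 ± 0.15 (SE, adjusted p = 0.880 over genes). It was -0.14 without GR_KO replicate 4 and -0.17 without control replicate 4. At 1422648_at the signals were 41, 41, 44 and 54 in controls and 30, 27, 29 and 19 in GR_KO muscle. Here every GR_KO signal lay under every control signal.

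At 1422648_at the log2 fold change was -0.79 ± 0.24 (SE), with an interval from -1.33 to -0.25 (limma over probe sets, unadjusted p = 0.00786, adjusted p = 0.963, exact permutation p = 0.0286). It was the second of the 14 probe sets whose groups did not overlap, where 2.19% of all probe sets tested did so. All these signals, from 19 to 54, were close to the filter level of 19.4, where MAS5 values are noisy. With single arrays left out, the log2 fold change ranged from -0.86 without GR_KO replicate 1 to -0.64 without GR_KO replicate 4. Without control replicate 4 the groups still did not overlap. At 1426008_a_at the signals were 39, 43, 50 and 29 in controls and 35, 31, 22 and 25 in GR_KO muscle. Control replicate 4 again lay among the GR_KO arrays, and the log2 fold change was -0.51 ± 0.27 (SE, unadjusted p = 0.0827), or -0.66 without that array.

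No difference between the Slc7a2 probe sets passed after adjustment. The exact test cannot go below 0.0286, and over 6 pairs that value does not pass when a single pair reaches it. The group difference at 1436555_at was 0.56 above that at 1422648_at on the log2 scale (exact permutation p = 0.0286, adjusted p = 0.171 over 6 pairs) and 0.28 above that at 1426008_a_at (exact permutation p = 0.314, adjusted p = 0.471). The fourth probe set, 1450703_at, was annotated to the same accession as 1422648_at but was dim. Its signals lay between 1 and 12 in controls and between 1 and 14 in GR_KO muscle, and no comparison was made with it. The mean of all 4 probe sets gave a log2 fold change of -0.38 for the gene. The place of each probe set in the transcripts of the gene was not analysed here.

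**Figure D2:**
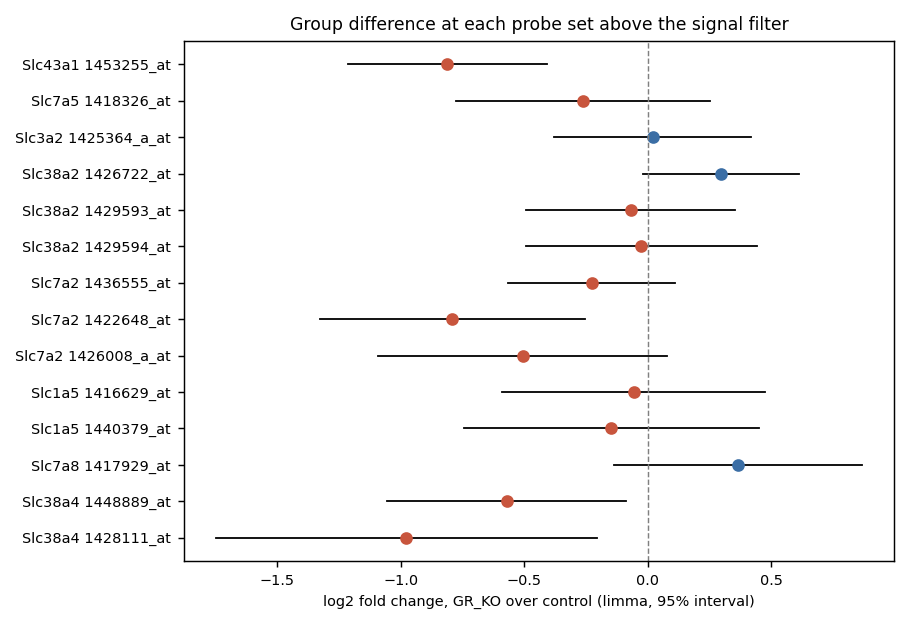
Log2 fold change of GR_KO over control (horizontal axis) at the 14 transporter probe sets above the signal filter, with points for the limma estimate (red below 0, blue above 0) and lines for its 95% interval. The intervals of Slc43a1 1453255_at, Slc7a2 1422648_at and both Slc38a4 probe sets lie below 0, and all others span 0.

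The heterodimeric exchanger LAT1 and its heavy chain showed no difference beyond the spread of the arrays. Slc7a5, the light chain that exchanges leucine for glutamine, had signals of 34, 54, 49 and 46 in controls and 35, 31, 43 and 43 in GR_KO muscle. Control replicate 1 lay among the GR_KO arrays, and the other controls lay above them all. Limma gave a log2 fold change of -0.26 ± 0.22 (SE, adjusted p = 0.881) with an interval from -0.75 to 0.23. It was -0.40 without control replicate 1 and -0.17 without GR_KO replicate 2.

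Slc3a2, the heavy chain that brings LAT1 and LAT2 to the membrane, had signals of 360, 402, 467 and 295 in controls and 311, 367, 388 and 477 in GR_KO muscle. The ranges of the groups were nearly the same, with means of 381 ± 72.3 and 386 ± 69.0 (SD, n = 4 each). The log2 fold change was 0.02 ± 0.18 (SE, adjusted p = 0.987). Its interval ran from -0.37 to 0.41, so with 4 arrays per group a change within those bounds, in either direction, was compatible with the values. The sign of the log2 fold change turned without control replicate 4, to -0.10, and without GR_KO replicate 4, to -0.09.

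Slc7a8, the light chain LAT2 that also pairs with Slc3a2, had the highest log2 fold change of the 8 genes. Its signals were 36, 44, 37 and 29 in controls and 54, 47, 50 and 37 in GR_KO muscle. GR_KO replicates 1 to 3 lay above all controls, and GR_KO replicate 4 lay at the level of control replicate 3. Limma gave a log2 fold change of 0.37 ± 0.22 (SE, adjusted p = 0.880) with an interval from -0.11 to 0.85, and it was 0.26 without control replicate 4.

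Among the carriers of small neutral amino acids, Slc38a2 had a higher mean at its brightest probe set only. Slc38a2 is the system A transporter that is known to be induced when amino acids are scarce. At 1426722_at the signals were 1005, 943, 751 and 854 in controls and 1114, 1224, 1104 and 920 in GR_KO muscle. GR_KO replicates 1 to 3 lay above all controls, and GR_KO replicate 4 lay among them. The log2 fold change was 0.30 ± 0.14 (SE, unadjusted p = 0.0605, adjusted p = 0.880), a 1.23-fold difference. With the mean of the 3 Slc38a2 probe sets in place of the brightest it was 0.07.

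The other Slc38a2 probe sets, which share 1 accession, gave values near 0. At 1429593_at the signals were 240, 293, 253 and 360 in controls and 258, 368, 250 and 223 in GR_KO muscle, a log2 fold change of -0.07 ± 0.19 (SE). At 1429594_at all 8 signals lay between 32 and 43, with a log2 fold change of -0.03 ± 0.21 (SE). The difference at the brightest probe set was 0.37 above the first of these (exact permutation p = 0.0857, adjusted p = 0.257) and 0.32 above the second (exact permutation p = 0.143, adjusted p = 0.286).

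Slc1a5, the glutamine carrier ASCT2, had overlapping groups at both probe sets. At 1416629_at the signals were 64, 87, 80 and 136 in controls and 106, 73, 87 and 77 in GR_KO muscle. Control replicate 4 was the highest array, and without it the log2 fold change went from -0.06 ± 0.23 (SE, adjusted p = 0.969) to 0.15. At the dimmer 1440379_at the signals lay between 22 and 29 in controls and between 17 and 28 in GR_KO muscle, with a log2 fold change of -0.15 ± 0.27 (SE).

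Arrays that were high for 1 transporter were low for another. Control replicate 4 had the highest signal of the controls at 7 of the 14 probe sets above the filter and the lowest at 4. It was highest for Slc43a1, for Slc7a2 at 1436555_at and 1422648_at, for Slc38a2 at 1429593_at and 1429594_at, for Slc1a5 at 1416629_at and for Slc38a4 at 1428111_at. It was lowest for Slc3a2, for Slc7a8, for Slc7a2 at 1426008_a_at and for Slc38a4 at 1448889_at. Among the GR_KO arrays, replicate 4 was the lowest at 7 of the 14 and replicate 1 the highest at 6.

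**Figure D3:**
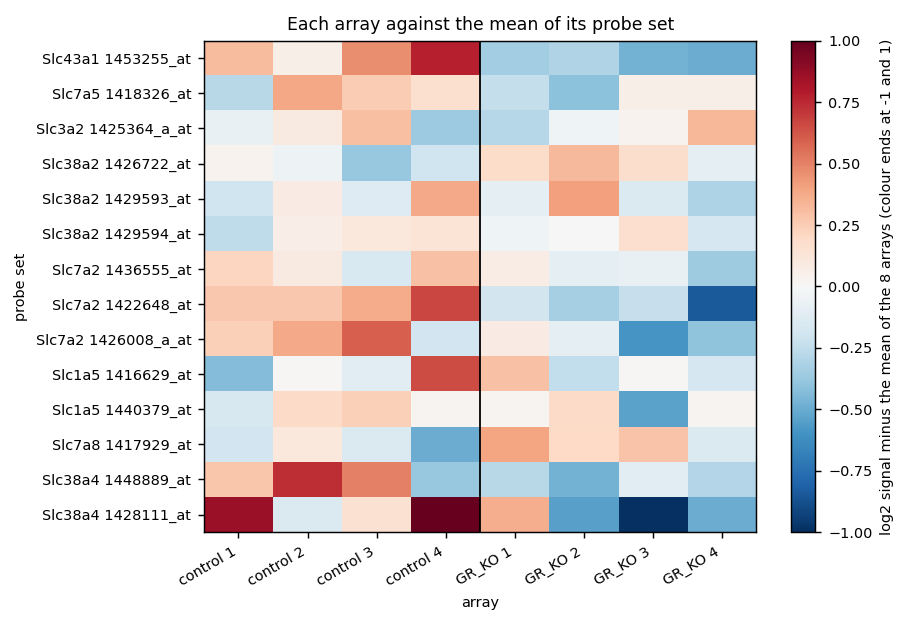
Log2 signal minus the mean of the 8 arrays (colour, red above and blue below, ending at -1 and 1) for the 14 transporter probe sets above the filter (rows) on the 8 arrays (columns, the line divides controls from GR_KO). Slc43a1 is above its mean on all 4 controls and below it on all 4 GR_KO arrays, and control replicate 4 holds both red and blue cells.

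Genes with a pattern like that of Slc43a1 were sought by the root mean square difference of log2 signals, each centred on its own mean over the 8 arrays. Genes chosen this way share the direction and array order of Slc43a1 through the choice itself. Their likeness is therefore no separate result. Of the 11061 other genes tested, the closest were Slc19a2, a thiamine transporter, at 0.14, Rab7, a GTPase of late endosomes, at 0.15, Tmem39a at 0.15, Snhg12, a host gene of small nucleolar RNAs, at 0.19, and Stab2, a scavenger receptor, at 0.20. Slc19a2 had signals of 110, 99, 116 and 141 in controls and 81, 72, 53 and 67 in GR_KO muscle, a log2 fold change of -0.78 ± 0.18 (SE, adjusted p = 0.665). The log2 fold change of Rab7 was -0.84 (adjusted p = 0.0822). Its adjusted p was 0.0453 after quantile normalization, 0.0183 with array weights and 0.170 with the mean of the probe sets, and it passed in no other alternative. The log2 fold change of Tmem39a was -0.56 (adjusted p = 0.850), that of Snhg12 -0.59 (adjusted p = 0.880) and that of Stab2 -0.68 (adjusted p = 0.850). The groups of Snhg12 overlapped, with control replicate 2 at 97 and GR_KO replicate 1 at 103. Other probe sets above the filter gave log2 fold changes of -0.36 for Slc19a2, -1.19 for Rab7 and 0.04 for Tmem39a, so that of Tmem39a did not show the pattern.

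**Figure D4:**
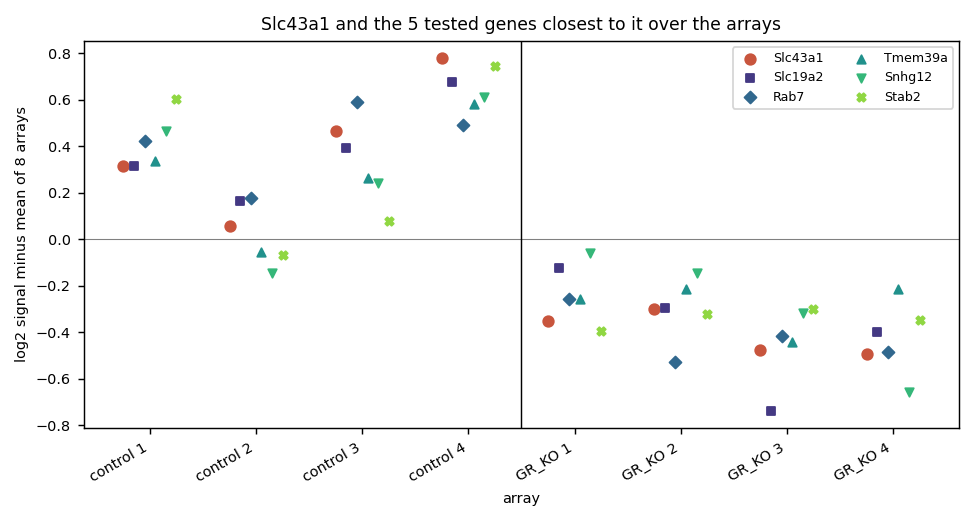
Log2 signal minus the mean of the 8 arrays (vertical axis) of Slc43a1 and the 5 tested genes closest to it, by array. All 6 genes have their highest values on control arrays, and control replicate 2 is the lowest control of Slc43a1, Slc19a2, Rab7, Tmem39a, Snhg12 and Stab2. The 5 genes were chosen for likeness to Slc43a1 over these arrays, so this shared order follows from the choice.

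The other amino acid transporters measured on the arrays gave no call. Of 33 listed genes, 32 were on the array and 20 were bright enough to test. Of those 20, 0 passed limma's adjusted threshold in either direction. Their log2 fold changes were above 0 for 10 and below 0 for 10, where 47.8% of all genes tested were below 0, with a median of -0.01. An unadjusted p under 0.05 was found for 1 gene, where 4.63% of all genes had one. The 1 gene was Slc6a6, the taurine transporter, with signals of 838, 928, 743 and 761 in controls and 876, 1235, 964 and 1159 in GR_KO muscle. Its log2 fold change was 0.36 ± 0.15 (SE, adjusted p = 0.880), and its second probe set gave 0.13. Slc38a10 had a log2 fold change of 0.25 and the glutamine carrier Slc38a3 (SNAT3) one of -0.22, both with an adjusted p of 0.880. Without control replicate 4 Slc38a10 was at 0.12, and the 5 other probe sets of Slc38a10 lay between -0.29 and 0.24.

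Transported amino acids are sensed by mTORC1, the kinase complex that promotes protein synthesis, through the Rag GTPases on the lysosome. Beside genes of this sensing pathway, the list held other regulators of mTORC1, namely Ddit4, Tsc1, Tsc2 and Rheb. Of 34 listed genes, 32 were tested and 0 passed limma's adjusted threshold. An unadjusted p under 0.05 was found for 3, where 4.63% of all genes tested had one. The median log2 fold change over the list was -0.02. Groups did not overlap for 4 of the 32, where 2.58% of all genes tested had groups that did not overlap. Ddit4, Castor2 and Fnip1 were among the 4. Ddit4, an inhibitor of mTORC1, had a log2 fold change of -0.75 ± 0.21 (SE, adjusted p = 0.850). Castor2, of the family of arginine sensors, had signals of 438, 431, 441 and 410 in controls and 472, 717, 568 and 682 in GR_KO muscle, which did not overlap. Its log2 fold change was 0.49 ± 0.15 (SE, adjusted p = 0.850), those of its other probe sets above the filter were 0.23 and 0.25, and the mean of all its probe sets, dim ones included, gave 0.03. Fnip1, a partner of folliculin, had 0.55 ± 0.18 (SE, adjusted p = 0.880), but its other probe sets gave -0.12 and -0.08, and the mean of all gave 0.12.

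Genes of the ATF4 response to scarce amino acids did not pass either. Beside genes that ATF4 induces, the list held Atf4 itself and the kinases Eif2ak3 and Eif2ak4, which act upstream of ATF4. Of 22 listed, 19 were tested and 0 passed limma's adjusted threshold, with a median log2 fold change of -0.06. An unadjusted p under 0.05 was found for 1 gene, where 4.63% of all genes tested had one. The 1 gene was Chac1, an enzyme of glutathione breakdown, with signals of 1453, 1366, 608 and 1121 in controls and 408, 705, 355 and 587 in GR_KO muscle. The groups overlapped through control replicate 3, and the log2 fold change was -1.12 ± 0.29 (SE, adjusted p = 0.777). Psph, the last enzyme of serine synthesis, had -0.33 ± 0.16 and the mitochondrial folate enzyme Mthfd2 had -0.36 ± 0.24 (SE, adjusted p = 0.880 for both), with -0.77 at the second Mthfd2 probe set. Without control replicate 3 the value of Mthfd2 was -0.19.

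Among genes of amino acid breakdown in muscle, Oat, ornithine aminotransferase, came closest to the threshold. Of 28 listed, 22 were tested, 0 passed limma's adjusted threshold, and 3 had an unadjusted p under 0.05, where 4.63% of all genes tested did. Of the 22, 16 had a log2 fold change below 0, where 47.8% of all genes did. The median was -0.07, or -0.22 with the mean of each gene's probe sets. Oat had signals of 1157, 1025, 1212 and 1071 in controls and 703, 535, 548 and 666 in GR_KO muscle, with no overlap. Its log2 fold change was -0.87 ± 0.14 (SE, adjusted p = 0.0777). Among the alternatives run, Oat passed only after quantile normalization (adjusted p = 0.0453) and with array weights (adjusted p = 0.0114). With the mean of the probe sets its adjusted p was 0.0835. Klf15, a glucocorticoid-induced factor that drives amino acid breakdown, had signals of 294, 204, 222 and 267 in controls and 199, 203, 154 and 160 in GR_KO muscle. Its groups did not overlap either, but only by 204 against 203. The log2 fold change of Klf15 was -0.46 ± 0.17 (SE, adjusted p = 0.880). Oat and Klf15 were the 2 of the 22 genes without overlap, where 2.58% of all genes tested had none. Prodh, proline dehydrogenase, had -0.65 ± 0.25 (SE, adjusted p = 0.880).

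**Figure D5:**
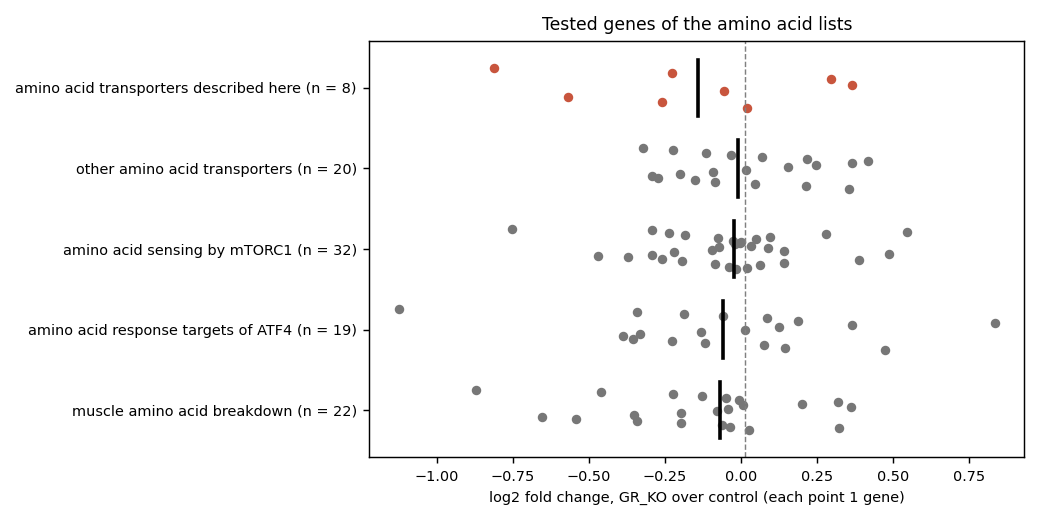
Log2 fold change of GR_KO over control (horizontal axis) of each tested gene, 1 point each, in the 8 transporters described here (red) and the 4 other amino acid lists (grey), with the list median (black bar) and the median of all genes tested (dashed line, 0.01). The medians run from -0.14 for the 8 transporters to -0.01 for the other transporters, and no gene shown passed the adjusted threshold.

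Several of these transporters are also used by cells other than muscle fibres, Slc7a5 and Slc3a2 by endothelial cells among them. The summed signal of 14 endothelial markers lay between 5051 and 6112 on the controls and between 6493 and 8681 on the GR_KO arrays. These ranges did not overlap, and no share over all features was computed for such sums. Of the 14 markers, 13 had a log2 fold change above 0, where 47.8% of all genes tested were below 0. Groups of single markers did not overlap for 3 of the 14, where 2.58% of all genes tested had groups that did not overlap. The sum of the 13 of 14 fibroblast and matrix markers tested lay between 8904 and 18913 on the controls and between 16234 and 23871 on the GR_KO arrays. For the 11 of 14 macrophage and leukocyte markers tested the ranges were 689 to 2149 and 765 to 1541. For the 4 of 7 Schwann cell markers they were 1007 to 3782 and 1343 to 4019, and for the 2 of 6 erythrocyte markers 106 to 263 and 130 to 235. The sum of all 15 fibre markers ran from 154398 to 332438 among the controls, with control replicate 4 the highest, and from 140003 to 221120 among GR_KO samples. Log2 fold changes were above 0 for 10 of the 13 fibroblast and matrix markers and 5 of the 11 macrophage and leukocyte markers. They were also above 0 for all 4 Schwann cell and both erythrocyte markers, while 47.8% of all genes tested were below 0. With single arrays left out, the endothelial median of 0.35 lay between 0.26 and 0.41. The median of the fibroblast and matrix markers, 0.34, lay between 0.25 and 0.58. Both medians were lowest without control replicate 4. Of the 15 fibre markers, 14 were below 0, where 47.8% of all genes tested were. In each of these lists, 0 markers passed limma's adjusted threshold. No marker tested was at 0 on any array, and the part of these cells in the transporter signals was not tested.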

How the data were processed

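Total RNA of 8 gastrocnemius muscles was biotin-labelled and hybridised to Affymetrix arrays, per the labels' protocols. The authors deposited signal intensities on a linear scale made with MAS5, per the submitters' processing notes. Neither the MAS5 version nor its scaling target is given in the sources used here. The deposited intensities were whole numbers, and trimmed array means lay between 99.960 and 99.964.

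Of 45101 probe sets, 64 control probe sets were left out of the tests. Of the others, 34945 had 1 gene symbol, 932 several and 9160 none, and 34741 symbols were updated through RefSeq (GRCm38.p6). Signals were taken to log2 without a pseudocount or further normalization. A 0 was replaced by the lowest positive signal of its array. Genes were tested by their brightest probe set, and a second fit tested every probe set. Features entered when their mean log2 signal exceeded that of the median probe set (a signal of 19.4). The two-sided test was limma (version 3.58.1, R version 4.3.3), with a trended eBayes prior. P-values were adjusted by Benjamini-Hochberg over every feature tested, at a threshold of 0.05. Exact permutation tests used all 70 arrangements, two-sided. Comparisons between probe sets of 1 gene were added after the values were seen. Figures were drawn in Python 3.11.15.

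The members, lists and tests were chosen with earlier results of these data known. The rule for named genes took all 8 members with their probe sets, the 3 genes of each amino acid list with the smallest p and any past the threshold, the 5 genes closest to the member with the smallest p, and Nr3c1. No label states that each sample is a separate animal, so the p-values cover the spread between these samples, part of which may be technical. With 4 arrays per group the precision is limited. Same-numbered samples were not treated as pairs, since their deviations did not correlate alike. Alternatives covered the normalization, pseudocount, filter, prior, array weights, replicate block, probe set choice and each array left out. The limma steps were tested on simulated data.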

Additional observations from a re-analysis of the deposited data

How the results depend on the processing

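Over the alternatives run, 0 of the transporter genes and 0 of their probe sets that were tested passed an adjusted p of 0.05, with single arrays left out (0 to 0) or not. The number tested depended on the filter. Under the 70th percentile filter 6 of the 8 genes were tested, without Slc7a5 and Slc7a8. The alternatives were quantile normalization, median centring, pseudocounts of 2 and 6, no filter or a 70th percentile filter, no trend, a robust prior, array weights, the replicate block, and, for genes, the mean of the probe sets. At an unadjusted p under 0.05 the counts were 2 genes and 4 probe sets. The count of probe sets with an exact permutation p under 0.05 was 2 and lay between 1 and 3 with single arrays left out. The lowest adjusted p of Slc43a1 over genes was 0.168, with array weights, and the highest 0.998, without GR_KO replicate 3.

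The replicate numbers of the labels did not pair the arrays: deviations from the group means of same-numbered arrays correlated at -0.19, 0.18, 0.11 and -0.39. With the replicate block 0 transporter genes and 0 probe sets passed, and over all genes 1 passed in place of 6. The number of all genes called ranged from 0 without a filter to 10 with array weights, and 9 were called with quantile normalization, 4 with median centring, 2 without a trend and 1 with the mean of the probe sets. Leaving out 1 array gave 0 calls for controls 1 and 3 and for GR_KO replicates 2 and 4, 2 calls for GR_KO replicate 3, 3 for control 2, 4 for control 4 and 5 for GR_KO replicate 1.

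Among single genes and probe sets named, the sign turned in the following cases. With array weights the log2 fold change of Slc3a2 was -0.025 over genes and -0.021 over probe sets, that of Slc1a5 0.029 over genes and 0.060 over probe sets, and those of Slc38a2 0.0055 at 1429593_at and 0.036 at 1429594_at. The last was 0.031 with quantile normalization and 0.0064 with median centring. Slc38a10 was -0.045 with the mean of its probe sets. With single arrays left out, Slc3a2 lay between -0.096 and 0.13, Slc1a5 between -0.21 and 0.15 at 1416629_at and between -0.23 and 0.0062 at 1440379_at, and Slc38a2 between -0.22 and 0.047 at 1429593_at and between -0.11 and 0.027 at 1429594_at. The cause of these turns was not tested. With the mean of all probe sets of a gene, Slc19a2 was at -0.40, Tmem39a at -0.26, Slc6a6 at 0.23, Slc38a3 at -0.41 and Mthfd2 at -0.56.

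Medians of the amino acid lists were near 0 and several turned with single arrays left out. That of the other transporters lay between -0.064 and 0.076 (0.051 after quantile normalization and 0.023 after median centring). That of mTORC1 sensing lay between -0.063 and 0.020 (0.0091 after median centring). That of the ATF4 response list lay between -0.13 and 0.029 (controls 4 and 2 left out). The median of amino acid breakdown lay between -0.14 and -0.068, and that of the 8 transporters between -0.20 and -0.076.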
